A study of Mus musculus with 6 samples.

Results

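The genes described here encode 7 subunits of the GABA-A receptor, Gabra2, Gabra3, Gabra4, Gabra5, Gabrb1, Gabrb2 and Gabrg1, out of 24060 genes in the table. They were picked by symbol from the counts of this age comparison with their values known, so their differences between ages are given as a description, without a test. RGCs, the projection neurons of the retina, were purified by immunopanning from C57BL/6 mice at E18 (embryonic day 18, n = 3, replicates 1, 3 and 4) and P5 (postnatal day 5, n = 3, replicates 6, 8 and 9), with no treatment or transgene named for either age. In immunopanning, dissociated retinal cells are first cleared of macrophages on antibody-coated dishes, and RGCs are then held on dishes carrying antibodies against CD90 (Thy1). The comparison belongs to a study of why embryonic RGCs extend axons that postnatal RGCs no longer do. Of the 7 subunits, 6 were more abundant at P5, from 1.59-fold for Gabrb2 to 11.6-fold for Gabrg1, while Gabra3 was slightly less abundant, at 0.850 of its E18 level. Among the 4 alpha genes, Gabra3 went from 52.6% ± 0.746 to 27.9% ± 2.61 (SD, n = 3) of their summed level per kilobase, and Gabra2, Gabra4 and Gabra5 each held a larger share at P5.

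GABA-A receptors are chloride channels opened by GABA, built as pentamers that most often combine alpha, beta and gamma subunits. The alpha and beta subunits together form the site that binds GABA, and the choice of alpha subunit sets much of how fast the channel works, whether it sits at synapses and how it responds to benzodiazepines. In the retina, amacrine cells release GABA onto RGC dendrites and bipolar cell terminals. In immature neurons, where internal chloride is high, opening the same channels can depolarize the cell.

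The counts on genes totalled between 81213639 and 114512853 per sample, and the smallest count of any of the 7 genes in any sample was 245. Values are CPM, the counts of a gene per 1000000 counts on genes, with library sizes scaled by TMM. Fold changes are P5 over E18, and p-values measure only the spread between these samples, since nothing in the labels says that they came from separate litters or preparations. The summed CPM of 15 RGC markers ranged from 9584 to 11358 at E18 and from 9855 to 11095 at P5, with Thy1, the panned surface protein, at 212.4 to 312.0 and 469.2 to 690.1 CPM. Of these markers, 5 were higher at P5, 4 higher at E18 and 6 did not pass, and Tubb3, Nefl and Gap43, which other neurons also express, gave much of the sum. Of 12 amacrine markers, 10 were tested and 6 were higher at E18 (edgeR quasi-likelihood test, adjusted p under 0.05), against 20.8% of all genes tested, none was at 0 in all samples, and their sum was 112.1, 220.7 and 18.6 CPM in E18 replicates 1, 3 and 4 and 21.4 to 31.0 CPM at P5. E18 replicates 1 and 3 therefore stood apart from the other 4 samples in this sum, to which Tfap2b gave the most there (47.5 and 119.2 CPM). Not every marker stood apart in this way. Gad2 had 9.48, 11.1 and 4.13 CPM at E18 and 8.01, 8.81 and 13.2 CPM at P5. Slc6a9 had 6.74 to 7.68 CPM at E18 and 7.67 to 9.42 CPM at P5. Markers of dividing cells summed to 408.4, 184.1 and 127.2 CPM in the same E18 samples and to 99.5 to 119.4 CPM at P5. Summed markers of microglia (at most 3.32 CPM), red blood cells (at most 1.82 CPM) and photoreceptors (4.58 to 14.1 CPM) were low in every sample. Summed horizontal cell markers (158.8, 258.6 and 92.8 CPM at E18 and 81.3 to 90.0 CPM at P5) showed the same sample pattern, but include Tfap2b and Prox1, which are also among the amacrine markers, while Sept4 was higher at P5 (log2 0.61, adjusted p = 0.00679). The summed endothelial and pericyte markers (72.8, 64.6 and 16.5 CPM against 14.7 to 17.9 CPM) were mostly Kdr, at 69.5, 62.9 and 14.1 CPM at E18, whereas Pecam1, Tek and Rgs5 were higher at P5 (log2 1.81, 1.80 and 4.36, the largest adjusted p 0.00239), at no more than 3.64 CPM in any sample. Higher in sum at E18 were markers of progenitors (663.8 to 948.4 against 522.7 to 665.5 CPM, overlapping), bipolar cells (584.0 to 667.0 against 305.1 to 379.4 CPM, with Isl1, which RGCs also express), glia (404.9 to 450.8 against 276.3 to 327.6 CPM) and oligodendrocytes (93.9 to 94.4 against 56.4 to 75.5 CPM). Pax6 gave most of the progenitor sum (means of 677.9 CPM at E18 and 549.3 at P5). Isl1 (557.3 and 259.6 CPM) and Glul (320.5 and 251.5 CPM) gave most of the bipolar and glial sums. Higher at P5 by the test were 0 progenitor, 2 bipolar, 1 glial and 2 oligodendrocyte markers, and higher at E18 6, 3, 3 and 1. Over all genes tested, 22.5% were higher at P5 and 20.8% at E18. The part of any of these cell types in the subunit levels was not tested. In bulk samples of this kind, fewer cells of a type and less RNA per cell cannot be told apart.

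The 7 genes lie on 4 chromosomes (coordinates from the GENCODE annotation of mm10). Gabrg1 (chr5:70751047-70842617), Gabra2 (chr5:70957597-71095849) and Gabra4 (chr5:71569749-71658308), all on the minus strand, and Gabrb1 (chr5:71658113-72149037, plus strand) share a stretch of 1.4 Mb on chromosome 5 with no subunit gene outside the 7 between them. Gabra5 (chr7:57407672-57510059, minus strand) lies near Gabrg3, Gabrb2 (chr11:42419757-42629028, plus strand) near Gabra6, and Gabra3 (chrX:72432681-72656848, minus strand) between Gabre and Gabrq. Gabra4 and Gabrb1 run in opposite directions and overlap by 196 bases at their 5′ ends, of which 46 are exonic in both. Whether the authors counted by strand is not given in the sources used here, so a read within those bases could belong to either gene.

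The 250 bases upstream of the RefSeq start site were found for 15 of 16 subunit genes looked up, all 7 described here among them (RefSeq, GRCm38.p6). Those of 4 genes are shown, 5′ to 3′ on the strand of the gene, because they span the range of age differences: Gabrg1 with the largest, Gabra3 with the opposite direction, and Gabra5 and Gabra2 as the other alpha genes of high level at P5. Capitals mark matches on either strand to 4 motifs, which are a TATA box with the letters TATAAA, an E-box written CANNTG with any base at each N, a GC box that reads GGGCGG, and the motif named for its own letters, the CCAAT box.
Gabrg1 (chr5:70842618-70842867, minus strand): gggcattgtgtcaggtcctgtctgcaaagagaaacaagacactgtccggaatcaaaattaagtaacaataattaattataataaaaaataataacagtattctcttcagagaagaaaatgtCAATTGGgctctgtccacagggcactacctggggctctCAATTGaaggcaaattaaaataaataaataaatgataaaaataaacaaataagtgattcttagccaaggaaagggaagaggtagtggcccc
Gabra3 (chrX:72656920-72657169, minus strand): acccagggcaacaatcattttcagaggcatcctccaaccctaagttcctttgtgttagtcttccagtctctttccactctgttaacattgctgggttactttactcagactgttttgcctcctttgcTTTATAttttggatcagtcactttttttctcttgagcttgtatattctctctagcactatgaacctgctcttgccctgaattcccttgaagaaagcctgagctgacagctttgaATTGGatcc
Gabra5 (chr7:57510060-57510309, minus strand): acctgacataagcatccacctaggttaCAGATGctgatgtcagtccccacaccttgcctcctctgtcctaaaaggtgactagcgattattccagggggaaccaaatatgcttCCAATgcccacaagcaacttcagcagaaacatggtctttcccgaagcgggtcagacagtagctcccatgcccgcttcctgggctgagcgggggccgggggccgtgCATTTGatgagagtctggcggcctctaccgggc
Gabra2 (chr5:71095850-71096099, minus strand): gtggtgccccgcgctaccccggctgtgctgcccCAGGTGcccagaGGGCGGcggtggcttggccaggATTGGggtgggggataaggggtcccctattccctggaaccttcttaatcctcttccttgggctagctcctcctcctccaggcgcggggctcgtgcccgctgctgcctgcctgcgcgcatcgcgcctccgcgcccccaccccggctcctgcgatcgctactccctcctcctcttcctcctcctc

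The upstream windows of Gabrg1 and Gabra3 were poor in CpG, with 1 and 0 CpG dinucleotides and a GC content of 35.6% and 42.4%. Over the 27025 genes with a window the median was 6 CpG, with quartiles of 2 and 16, and the median GC content was 52.0%. The other 5 genes had 8 to 18 CpG, up to 18 in Gabra2 and in Gabrb1. Any link between the number of CpG and the difference between ages was not tested. In the Gabrg1 window 2 E-boxes and 1 CCAAT box were found, and the CCAAT box overlaps the first E-box. The Gabra3 window held 1 TATA box and 1 CCAAT box, that of Gabra5 2 E-boxes and 1 CCAAT box, and that of Gabra2 1 E-box, 1 CCAAT box and 1 GC box. Of all windows, 13.0% held a TATA box, 66.1% an E-box, 34.5% a CCAAT box and 33% a GC box. The cyclic AMP response element TGACGTCA, present in 1.6% of windows, was in none of the 7. These matches describe the letters only.

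Among the alpha subunits, Gabra2 encodes a form found at many forebrain synapses and at the axon initial segment. It was measured at 63.8, 62.6 and 68.6 CPM in E18 replicates 1, 3 and 4 and at 154.3, 110.1 and 156.1 CPM in P5 replicates 6, 8 and 9. All 3 P5 samples lay above all 3 E18 samples, and the fitted difference was 2.16-fold (log2 1.11, SE 0.138). Gabra5, whose product sits largely outside synapses and carries tonic current in the hippocampus, had 13.4, 11.5 and 14.2 CPM at E18 and 43.2, 37.8 and 40.6 CPM at P5. The ages were far apart compared with the spread within each, and the difference was 3.11-fold (log2 1.64, SE 0.118), the largest of the 4 alpha genes in this group. Gabra4, which in thalamus and dentate gyrus joins the delta subunit in extrasynaptic receptors, had 7.004, 7.86 and 9.81 CPM at E18 and 20.7, 15.3 and 19.8 CPM at P5. Its difference of 2.26-fold (log2 1.18, SE 0.172) was close to that of Gabra2.

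Gabra3, a form that many brain regions express early in development, differed from the other alpha genes. It was measured at 63.1, 56.7 and 66.5 CPM at E18 and at 56.3, 51.6 and 50.4 CPM at P5. The lowest E18 sample, replicate 3, and the highest P5 sample, replicate 6, were nearly equal, and although the ages did not overlap, the difference was small (0.850-fold, log2 -0.23, SE 0.098). The 62.1 ± 4.95 CPM at E18 against 52.8 ± 3.10 CPM at P5 (SD, n = 3) thus left the gene well expressed at both ages.

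The beta subunits are needed for the GABA site and for export of the receptor to the surface. Gabrb2, which encodes a beta form abundant in the adult brain, had 122.6, 126.3 and 150.3 CPM at E18 and 242.2, 153.5 and 240.3 CPM at P5. P5 replicate 8 was only just above E18 replicate 4, while the other P5 samples were well above every E18 sample, and the difference was 1.59-fold (log2 0.67, SE 0.174). Gabrb1 had the lowest counts of the 7 genes, with 2.95, 2.73 and 3.44 CPM at E18 and 10.6, 5.51 and 8.69 CPM at P5. Its 2.72-fold difference (log2 1.44) carried the widest error (SE 0.247), and the highest P5 sample stood at 3.48 times the E18 mean against 1.81 times in the lowest.

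Gabrg1 encodes a gamma subunit of restricted expression in the brain, and receptors that carry it respond only weakly to classical benzodiazepines. It was measured at 4.69, 4.42 and 4.84 CPM at E18 and at 52.6, 50.6 and 58.5 CPM at P5. The samples of each age were close together, at 4.65 ± 0.210 and 53.9 ± 4.08 CPM (SD, n = 3), and the difference of 11.6-fold (log2 3.54, SE 0.113) was the largest among the subunit genes described. Each P5 sample alone stood at 10.9 to 12.6 times the E18 mean.

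**Figure D1:**
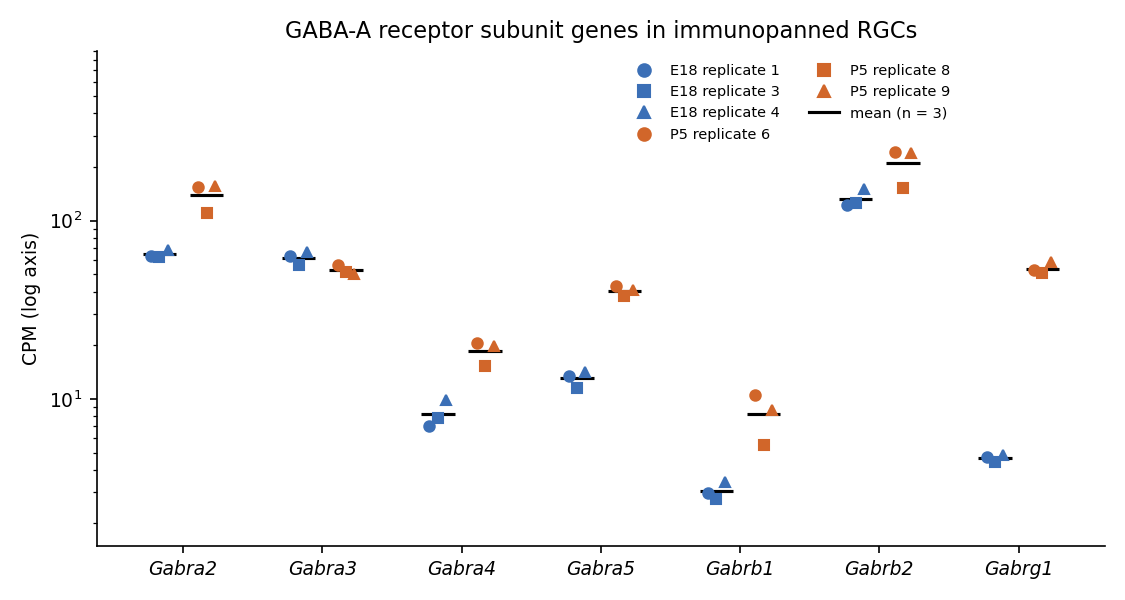
CPM of the 7 subunit genes in each sample on a log axis, blue for E18 and orange for P5, with bars at the mean of 3 samples. For 6 of the genes all P5 points lie above all E18 points, with P5 replicate 8 (orange square) the lowest P5 point, and for Gabra3 all P5 points lie below.

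All 7 genes passed the expression filter and none overlapped between ages, 6 with P5 above and 1 with E18 above. Over the 16449 genes tested, 28.5% had every P5 sample above every E18 sample and 27.6% the reverse. The median log2 fold change was 1.18 over the 7 genes and 0.00 over all genes tested, with quartiles of -0.38 and 0.40, and 5 of the 7 were at least 2-fold higher at P5 against 10.3% (1697) of all genes tested. As the genes were chosen on this difference, these figures describe them and support nothing further. Leaving out 1 sample at a time moved the log2 fold change of Gabrg1 between 3.47 and 3.60, that of Gabra5 between 1.55 and 1.70, that of Gabrb2 between 0.57 and 0.88, and that of Gabra3 between -0.30 and -0.18. With E18 replicate 4, the E18 sample with the lowest summed amacrine markers, as the single E18 sample, the log2 fold changes were 3.47 for Gabrg1, 1.5 for Gabra5, 1.25 for Gabrb1, 1.02 for Gabra2, 0.91 for Gabra4, 0.49 for Gabrb2 and -0.34 for Gabra3.

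P5 replicate 8 was the lowest P5 sample for each of the 6 genes more abundant at P5. The same sample was the lowest for 65.5% (2431) of all genes called higher at P5, replicate 6 for 24.3% and replicate 9 for 10.1%. How far it fell short varied among the genes. Its level was 0.572 of the mean of replicates 6 and 9 for Gabrb1, 0.636 for Gabrb2, 0.709 for Gabra2 and 0.754 for Gabra4, but 0.902 for Gabra5, 0.911 for Gabrg1 and 0.966 for Gabra3. Gabra2, Gabra4 and Gabrb2 hence had SDs at P5 set mostly by 1 sample, whereas Gabra5, Gabrg1 and Gabra3 were steady over the 3. For Gabrb1, replicates 6 and 9 also differed from each other, at 10.6 and 8.69 CPM. What makes replicate 8 differ was not tested.

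The summed CPM of the 7 genes was 272.0 to 317.6 at E18 and 424.3 to 579.9 at P5. Most of this sum at E18 came from Gabrb2, Gabra2 and Gabra3. At P5 Gabrb2 and Gabra2 gave most of it, and the mean of Gabrg1 (53.9 CPM) was close to that of Gabra3 (52.8 CPM). To set levels of different genes against each other, CPM was divided by the length of the union of GENCODE exons, which differ from the RefSeq exons on which reads were counted. On this scale of CPM per kilobase, Gabrb2 led the 7 genes at both ages, with 20.9 ± 2.36 at E18 and 33.3 ± 7.97 at P5 (SD, n = 3). At E18 Gabra3 followed with 15.8 ± 1.26, then Gabra2 with 8.504 ± 0.417, Gabra5 with 4.38 ± 0.474, Gabra4 with 1.35 ± 0.236, Gabrg1 with 0.591 ± 0.0266 and Gabrb1 with 0.220 ± 0.0261. No neighbours in this E18 order overlapped between their samples. At P5 Gabra2 came second of the 7 with 18.35 ± 3.41, followed by Gabra5 with 13.6 ± 0.903 and Gabra3 with 13.5 ± 0.790. Within each P5 sample Gabra2 lay above Gabra5 and Gabra3, closest in replicate 8, at 14.4 against 12.7 and 13.1. The samples of Gabra5 (12.7 to 14.5) and Gabra3 (12.9 to 14.3) overlapped, so the order of these 2 genes at P5 is not resolved. Gabrg1, which lay below Gabra4 at E18, reached 6.85 ± 0.519 CPM per kilobase at P5, above Gabra4 with 3.05 ± 0.479. Gabrb1 was the lowest of the 7 at both ages, with 0.596 ± 0.185 at P5.

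The 4 alpha genes were then set against each other as shares of their CPM per kilobase. Gabra6 was included in the sum and held at most 0.0258% of it in any sample. The sum lay between 27.8 and 32.3 at E18 and between 42.8 and 52.5 at P5. Gabra3 held 53.5%, 52.0% and 52.4% of it in the E18 samples and 27.3%, 30.7% and 25.6% in the P5 samples, a difference of -24.7 percentage points. Gabra5 held 14.5% ± 0.592 at E18 and 28.2% ± 1.34 at P5, and Gabra2 28.3% ± 0.976 and 37.6% ± 3.58 (SD, n = 3). At P5 the sum was thereby spread over Gabra2, Gabra5 and Gabra3 with none above 40.7% in a sample, whereas Gabra3 made up at least 52.0% of it in every E18 sample. Gabra4 held 4.49% ± 0.598 and 6.28% ± 0.357. For all 4 genes the samples of the ages did not overlap in share. Shares depend on the lengths used. Without division by length, the difference was -20.7 points for Gabra3 and 7.41 for Gabra5, in place of -24.7 and 13.7. In plain CPM Gabra3 (62.1 ± 4.95) lay just below Gabra2 (65.0 ± 3.19) in each E18 sample. The majority of Gabra3 at E18 therefore rests on the lengths used.

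**Figure D2:**
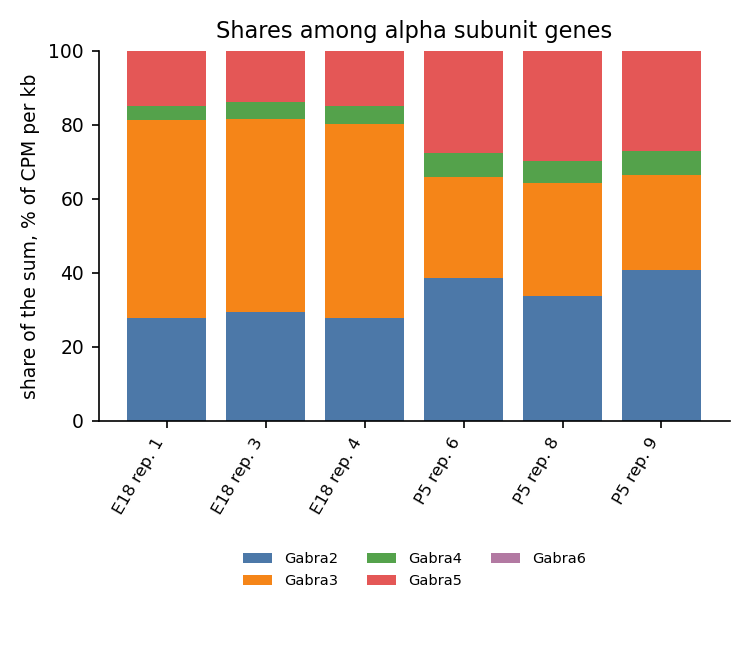
Share of each alpha subunit gene in the sum of their CPM per kilobase, in percent, for each of the 6 samples. Gabra3 (orange) covers 52.0% to 53.5% at E18 and 25.6% to 30.7% at P5, while Gabra2 (blue) goes from at most 29.5% to at least 33.7% and Gabra5 (red) from at most 15.0% to at least 27.2%.

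Another 9 subunit genes were examined beside the 7. Of these, 5 passed the expression filter, and by the edgeR quasi-likelihood test (adjusted p under 0.05) 1 was higher at P5, 2 were higher at E18 and 2 did not pass, with a median log2 fold change of -0.69. Over all 16449 genes tested, 43.4% (7135) were called, 22.5% (3709) higher at P5 and 20.8% (3426) higher at E18. Gabrg3, which encodes another gamma subunit, had 9.64, 9.58 and 13.7 CPM at E18 and 25.5, 20.6 and 30.3 CPM at P5. It rose 2.32-fold (log2 1.22, SE 0.189, adjusted p = 0.00162), and P5 replicate 8 was again the lowest P5 sample. With E18 replicate 4 as the single E18 sample its log2 fold change was 0.89. The call was lost in that fit, which called fewer of all genes. The rho subunits, which form GABA-gated channels known from bipolar cells, were low, with Gabrr1 at 2.23 to 3.49 CPM (adjusted p = 0.232) and Gabrr2 at 0.0451 to 0.338 CPM (adjusted p = 0.157, and 0.0168 without P5 replicate 8). Gabra6, Gabre, Gabrp and Gabrr3 had at most 0.147 CPM in any sample and were not tested.

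The calls toward E18 were weaker. Gabrd, whose product replaces gamma in extrasynaptic receptors, had 4.92, 8.49 and 0.0884 CPM in E18 replicates 1, 3 and 4 and 0.406, 0.396 and 0.840 CPM in P5 replicates 6, 8 and 9. It was high in just the 2 samples that were high in summed amacrine markers, where Tfap2b, an AP-2 factor of amacrine cells, reached 47.5 and 119.2 CPM against 1.02 to 1.62 CPM in the other 4 samples. Its call (log2 -3.04, SE 1.085, adjusted p = 0.0492) was lost on leaving out any 1 of the 6 samples except E18 replicate 4, and with that replicate as the only E18 sample the sign turned (log2 2.60, adjusted p = 0.0681). The part of the amacrine markers in this result was not tested. Gabrq, which encodes the theta subunit, fell from 5.21 ± 1.12 to 3.23 ± 0.700 CPM (log2 -0.69, SE 0.235, adjusted p = 0.0419), a call lost on leaving out any 1 sample except P5 replicate 8, with adjusted p between 0.0545 and 0.144. For all 7 chosen genes E18 replicates 1 and 3 lay below replicate 4, the reverse of their order for Gabrd.

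**Figure D3:**
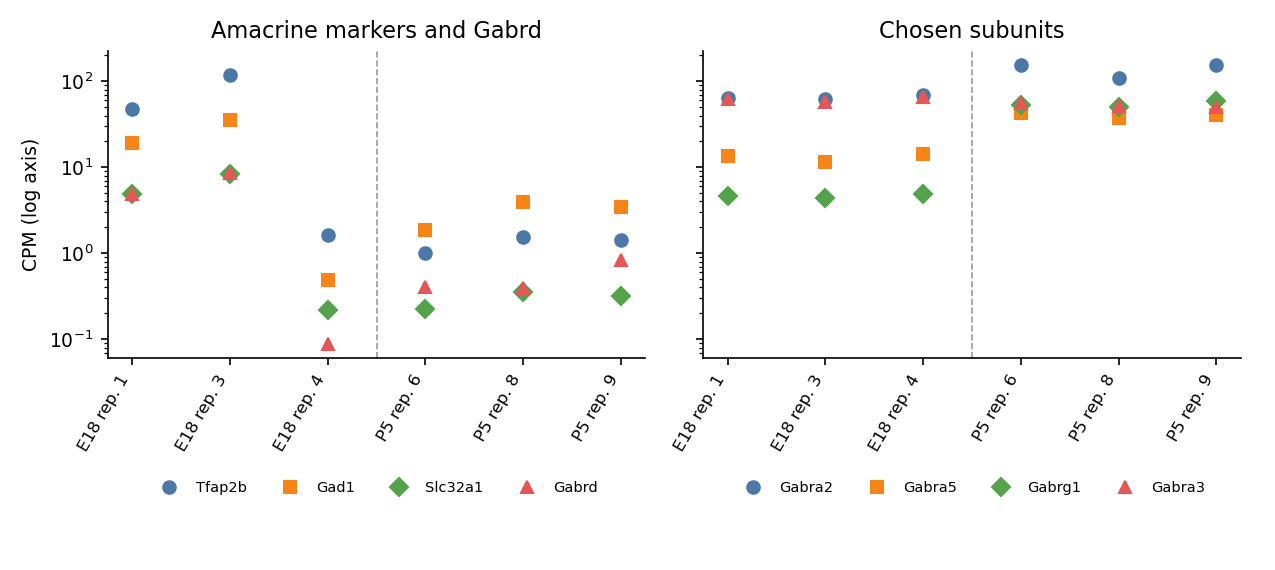
CPM on a log axis in each sample for 3 amacrine markers with Gabrd (left) and for Gabra2, Gabra5, Gabrg1 and Gabra3 (right), with a dashed line between the ages. Tfap2b, Gad1, Slc32a1 and Gabrd are each high in E18 replicates 1 and 3 and low in the other 4 samples, and the 4 chosen genes are each highest among the E18 samples in replicate 4, Gabrg1 at 4.42 to 4.84 CPM and Gabra3 at 56.7 to 66.5 CPM. Gad2 and Slc6a9, amacrine markers that were not high in E18 replicates 1 and 3 alone, are not drawn.

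**Figure D4:**
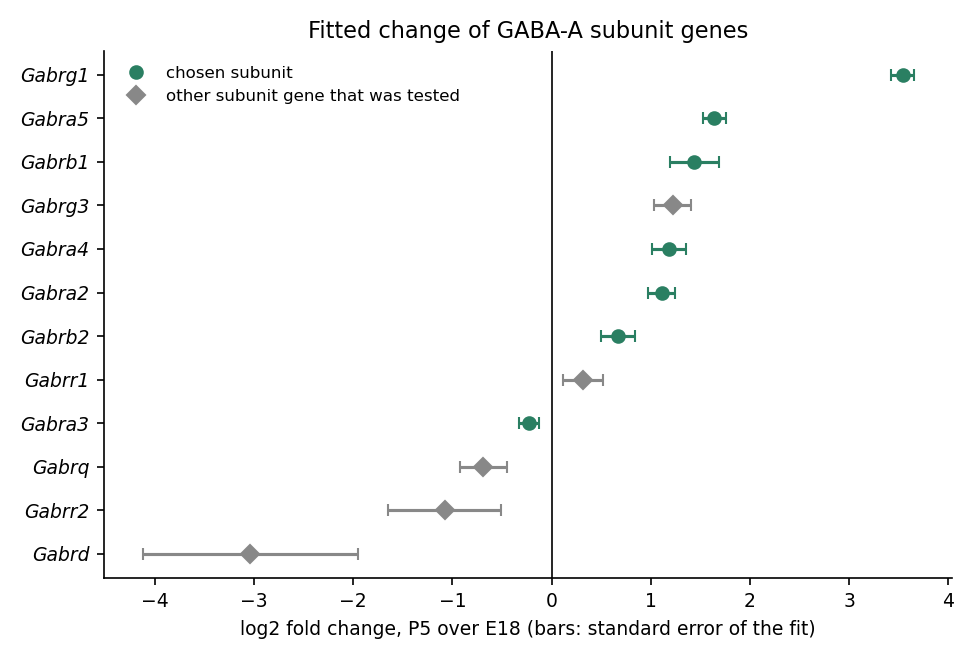
Fitted log2 fold change, P5 over E18, of 12 subunit genes that passed the expression filter, with bars of 1 standard error, derived from the test statistic. Gabrg1 stands highest at 3.54, Gabra5 follows at 1.64, and Gabrd lies lowest at -3.04 with the longest bar (SE 1.085).

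Genes around the receptor were read from the same test. Of 22 genes for anchoring and trafficking of GABA-A receptors, 8 rose, 2 fell and 12 did not pass, with a median log2 fold change of 0.11. Their share of calls was near the 43.4% of all genes tested. The largest change was that of Nsf, the ATPase of membrane fusion, which rose from 139.6 ± 9.22 to 406.3 ± 125.2 CPM (log2 1.54, adjusted p = 0.000723). Hap1, an adaptor for receptor recycling, rose from 15.1 ± 1.74 to 34.6 ± 13.2 CPM (log2 1.20, adjusted p = 0.00738), although P5 replicate 6 reached just 19.9 CPM. Genes of the inhibitory synapse itself were among those that rose, such as the exchange factor Iqsec3, from 93.7 ± 10.7 to 175.8 ± 37.1 CPM (log2 0.91, adjusted p = 0.00243), and the adhesion protein Slitrk3, from 15.4 ± 0.787 to 27.7 ± 3.24 CPM (log2 0.85, adjusted p = 0.00105). Plcl1, a phospholipase-like protein that binds the receptor, fell from 23.4 ± 2.84 to 12.5 ± 1.19 CPM (log2 -0.90, adjusted p = 0.00126). Gphn, which encodes the scaffold gephyrin beneath synaptic GABA-A and glycine receptors and is named here after its value was seen, rose from 125.1 ± 7.83 to 196.7 ± 41.7 CPM (log2 0.65, SE 0.151, adjusted p = 0.00900), with P5 replicate 8 again lowest at 149.6 CPM. With E18 replicate 4 as the single E18 sample, fewer of the 22 genes passed, as did fewer of all genes tested.

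The metabotropic GABA-B receptor showed a mixed picture, in which 3 of its 6 genes rose, 2 fell and 1 did not pass (median log2 0.26). Among all genes tested, 22.5% rose and 20.8% fell. Gabbr1, the subunit that binds GABA, was at 682.7 ± 57.1 and 671.4 ± 21.6 CPM (adjusted p = 0.845), and Gabbr2, the subunit that couples to G proteins, rose from 106.7 ± 9.01 to 294.1 ± 39.5 CPM (log2 1.46, SE 0.118, adjusted p = 0.000148). Among the auxiliary KCTD subunits, Kctd8 (log2 0.54, adjusted p = 0.00127) and Kctd12b (log2 2.52, adjusted p = 0.000399) rose, and Kctd12 (log2 -0.57, adjusted p = 0.0110) and Kctd16 (log2 -0.25, adjusted p = 0.0497) fell, the last with a call lost on leaving out any 1 sample except P5 replicate 8.

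Of 7 genes for synthesis, transport and breakdown of GABA, 4 rose, 1 fell and 2 did not pass, with a median log2 fold change of 0.69. The shares over all genes tested were 22.5% higher at P5 and 20.8% higher at E18. The uptake carrier Slc6a11 rose from 114.7 ± 16.9 to 185.6 ± 38.2 CPM (log2 0.69, adjusted p = 0.00895), and its relative Slc6a13 from 0.419 ± 0.0283 to 1.01 ± 0.287 CPM (log2 1.27, adjusted p = 0.0103). With E18 replicate 4 as the single E18 sample, both calls were lost, in a fit with fewer calls over all genes. The GABA transaminase Abat, which starts the breakdown of GABA, rose from 95.7 ± 6.15 to 205.0 ± 30.7 CPM (log2 1.10, adjusted p = 0.000396), and the next enzyme of the pathway, Aldh5a1, from 28.0 ± 0.892 to 50.1 ± 5.16 CPM (log2 0.84, adjusted p = 0.000691). The vesicular carrier Slc32a1, a marker of cells that release GABA, had 4.87, 8.30 and 0.221 CPM at E18 and 0.226 to 0.356 CPM at P5, the same sample pattern as Gabrd. Its call (log2 -3.89, adjusted p = 0.0136) turned in sign with E18 replicate 4 alone (log2 0.43, adjusted p = 0.741) and was lost without P5 replicate 6 (adjusted p = 0.0681), and without E18 replicate 3 the log2 fold change was -3.08 (adjusted p = 0.0444).

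The chloride carriers set the gradient on which these channels act. Of 5, 1 rose, 1 fell and 3 did not pass (median log2 0.13), a share of calls near the 43.4% of all genes tested. Slc12a2, named here after its value was seen, did not pass (50.1 ± 1.81 and 54.7 ± 9.12 CPM, adjusted p = 0.432). Slc12a5, the potassium-chloride exporter KCC2 of mature neurons, rose from 74.4 ± 18.05 to 273.7 ± 114.5 CPM (log2 1.88, SE 0.285, adjusted p = 0.00146). Slc12a7, a relative of Slc12a5, fell from 27.0 ± 1.60 to 4.82 ± 1.39 CPM (log2 -2.49, SE 0.211, adjusted p = 0.000166). Of the glycine receptor genes, which form the other inhibitory chloride channel of RGCs, all 5 rose, with a median log2 fold change of 2.07. Among all genes tested, 22.5% rose. Glrb, the beta subunit that binds gephyrin, rose from 27.8 ± 3.56 to 175.7 ± 64.0 CPM (log2 2.66, adjusted p = 0.000280). Glra2, the early alpha form, rose from 75.6 ± 9.71 to 124.8 ± 16.5 CPM (log2 0.72, adjusted p = 0.00293), and Glra1, the adult alpha form, from 0.687 ± 0.115 to 2.88 ± 0.833 CPM (log2 2.07, adjusted p = 0.000916). Glra3 rose from 1.45 ± 0.286 to 6.05 ± 1.84 CPM (log2 2.06, adjusted p = 0.000837) and Glra4 from 0.166 ± 0.0251 to 1.17 ± 0.854 CPM (log2 2.81, adjusted p = 0.00366), the latter from 69, 57 and 202 counts in replicates 6, 8 and 9, and without replicate 9 its log2 fold change was 2.03 (adjusted p = 0.00509). With E18 replicate 4 as the single E18 sample, not all of the 5 passed, and fewer of all genes tested did.

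**Figure D5:**
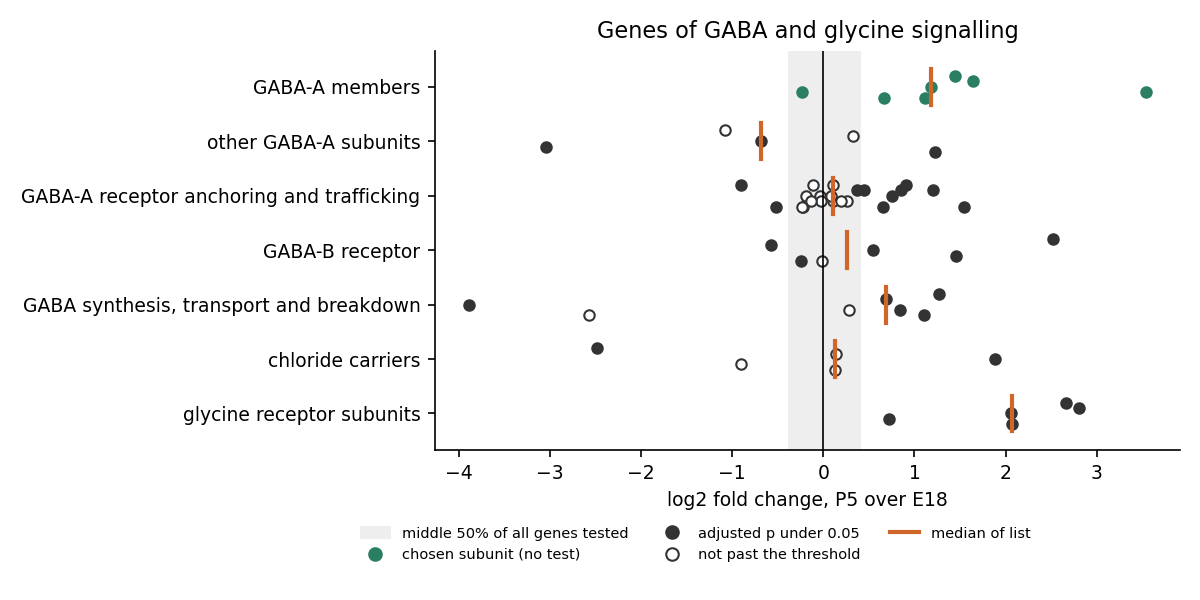
Log2 fold change, P5 over E18, of each gene tested in the 7 groups, with an orange bar at the median of the group and a grey band over the middle 50% of all genes tested (-0.38 to 0.40). The 7 chosen subunits (green) have their median at 1.18 and the glycine receptor genes theirs at 2.07, while the anchoring genes center on 0.11.

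Genes whose pattern over the 6 samples was most like that of Gabrg1, the subunit with the largest difference, and of Gabra3, the subunit with the smallest, were found by Pearson's r of log2(CPM + 1) among the 9724 genes whose mean reached 10 CPM. For Gabrg1 these were Camk4 (r = 0.9996), a calcium-dependent kinase, Ctdspl (r = 0.9990) and Ppp1r16b (r = 0.9989), and for Gabra3 they were Rfng (r = 0.9947), Glb1l (r = 0.9819) and Ttc7 (r = 0.9724). Camk4 went from 88.6 to 387.5 CPM between the age means. The 6 samples form 2 ages, and any gene with a steady difference between them resembles Gabrg1, as 905 of the 9724 genes did with r over 0.95, against 27 for Gabra3.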

How the data were processed

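RGCs from E18 and P5 mice were sequenced as 100-base paired-end reads, which the authors aligned to mm10 with STAR 2.4.0 and counted on RefSeq genes with HT-seq 0.6.1. The submitters' processing notes also name CASAVA 1.8.2 and edgeR. The labels name polyA RNA, whereas the protocol names RiboZero depletion. The authors deposited raw counts per gene, which are the only values used. The deposited normalized counts (a signal scaled by library size), log2 fold changes, p-values with false discovery rates, and a score that ranks genes were not used. One E18 column also carries the numbers 2 and 5 and was taken as replicate 1.

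Samples were grouped by the age in their titles. In R 4.3.3 with edgeR 4.0.16, counts were scaled by TMM, filtered with filterByExpr, which kept 16449 of 24060 genes, and compared by quasi-likelihood F-tests, with Benjamini-Hochberg adjustment at 0.05. Each SE of a log2 fold change was derived from that F statistic, as the absolute log2 fold change divided by the square root of F. The script was tested on simulated data. Replicates of 1 age differed far more than sampling noise (chi-square per degree of freedom 30.5 to 141). The subunits and gene lists were chosen with earlier results of these data known. The genes named are the 7 subunits, 9 other subunit genes, the genes of each list past the threshold (the 5 with the largest change where more passed), the marker lists, and the 3 most similar genes of Gabrg1 and Gabra3. Alternatives were DESeq2 1.42.0, the edgeR exact test, RLE and upper-quartile scaling, other count filters, other gene lengths for the shares, and the omission of each sample. E18 replicate 4 as the single E18 sample was added after the amacrine markers were seen. Samples of the injury experiment were not analysed here. Some genes are not reported here and are left out of lists and shares.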

Additional observations from a re-analysis of the deposited data

How the results depend on the processing

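Of 91 values of the 7 subunits' log2 fold changes under alternatives, 88 moved by less than the spread between replicates, and none changed sign. With E18 replicate 4 as the single E18 sample, assumed to vary like the P5 samples, the median of the 7 was 1.02, and 1633 genes were called over all genes (977 higher at P5, 656 higher at E18). With it 0 of the 9 other subunits passed in edgeR (0 higher at P5; 3 of 6 tested at an unadjusted p under 0.05, and 3 at an adjusted p under 0.05 in DESeq2), 2 anchoring genes (2 higher at P5), 3 GABA-B genes and 3 glycine receptor genes (3 higher at P5), while Gabrd (log2 2.60) and Slc32a1 (0.43) reversed. Leaving out 1 sample at a time gave a median of 1.09 to 1.32 for the 7 subunits, 4575 to 8796 genes called (2438 to 4661 higher at P5, 2137 to 4135 higher at E18), 1 to 3 of the other subunits, and a log2 difference of -1.46 to -0.53 for the summed markers of dividing cells, the last without E18 replicate 1. The lowest counts over all genes came without E18 replicate 3. With DESeq2 and with upper-quartile scaling Gabrd no longer passed (adjusted p = 0.0527 and 0.0536), and with the exact test Kctd16 did not (adjusted p = 0.0508). Without division by length the difference in share between ages was -20.7 points for Gabra3 and 7.41 for Gabra5. With the longest transcript it was 12.3 for Gabra5. Without a filter on low counts 2 of the other subunits were higher at P5, and with at least 1 CPM in 3 samples 3 genes of GABA synthesis, transport and breakdown passed. Upper-quartile and RLE scaling left the median of all genes within -0.013 to -0.005. The cause of these changes was not tested. No paired analysis was possible because the ages share no replicate number. Depth did not limit the 7 subunits, but Gabrr2 and the untested subunits rest on few reads.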
